A study of Mus musculus with 7 samples.

Results

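Formative pluripotency is the state that epiblast cells pass through between the naive state of the pre-implantation embryo and the primed state that follows implantation. The transcription factors examined, 9 in all, are known for that transition or for the epiblast after implantation: the homeobox factor Otx2, the POU factor Pou3f1 (also called Oct6), the zinc finger factors Sall2, Zic2 and Zic5, and the SOX factors Sox3, Sox4, Sox11 and Sox12. They were chosen by gene name, and each matched 1 of the 52636 Ensembl gene IDs of the deposited counts. As background, ERK signalling downstream of the FGF receptors is known to promote exit from the naive state. Otx2 is known as an early driver of that exit that helps to direct Oct4 to enhancers of formative genes, and Pou3f1 is known to follow it.

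Embryos were flushed at embryonic day 2.5 and grown on in culture. The libraries were made from inner cell masses (ICMs), which hold the epiblast and the primitive endoderm, and are labelled as epiblast at embryonic day 3.5. They were made after immunosurgery, a step meant to remove the trophectoderm. All embryos carried Sox2Cre, in which the Sox2 promoter drives Cre, and the tamoxifen-inducible cRAF construct CRAFR26, and all were kept after flushing for 24 h in KSOM medium with 250 nM of the FGF receptor inhibitor PD173074. The 3 vehicle libraries (time label 0 h) received ethanol for 4 h and the 4 tamoxifen libraries (time label 4 h) received 250 nM 4-hydroxytamoxifen for 4 h, to switch on cRAF and so ERK. Each library is a pool of 10 ICMs from clone 4 or clone 8, as the labels name them. The vehicle group holds 2 pools of clone 4 (clone4_1, clone4_2) and 1 of clone 8 (clone8_1), and the tamoxifen group holds 2 of each (clone4_1, clone4_2; clone8_1, clone8_2). Embryos without the construct were not analysed here. The labels do not say whether pools of the same clone came from separate litters, so the p-values measure the spread between these pools.

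Total counts were 22981498 to 42294719 per library, which makes 1 count worth 0.0237 to 0.0431 CPM, where CPM is the count divided by the library total after TMM scaling and multiplied by 1000000. Vehicle clone8_1 stood apart: the 1164 coding genes shorter than 1000 nt had there a median deviation of -1.29 (log2) from the median library, against -0.038 to 0.22 in the other 6 libraries. The typical transcripts of the 9 factors are longer than that, from 2065 nt (Sox3) to 8311 nt (Sox11). Whether transcripts of such lengths also deviated in vehicle clone8_1 was not tested. The epiblast label was checked with 8 epiblast markers, which were counted in every library and summed to 1426 to 1809 CPM in vehicle and 1486 to 2213 CPM in tamoxifen libraries. The 8 trophectoderm markers were also counted in every library and summed to more, 7039 to 9855 CPM in vehicle and 5612 to 8485 CPM in tamoxifen libraries. Sums of unlike lists do not give shares of cells: Krt8 had 2250 to 3837 CPM, Krt18 1969 to 4127 CPM and Cdx2 324 to 543 CPM. The part of trophectoderm RNA in the levels below was not tested. The 8 primitive endoderm markers summed to 788 to 1066 CPM and 809 to 946 CPM, with Sox7 at 0 in tamoxifen clone4_1. Among markers of gastrulation and neural cells, Sox1 and Neurog2 were at 0 in all 7 libraries, and Foxa2 and T had at most 2 and 7 counts, but the other 4 were counted in every library (Nes 18 to 158, Tubb3 6 to 136, Mixl1 24 to 90 and Pax6 32 to 64 counts).

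At embryonic day 3.5 Otx2 was by far the most abundant of the 9 factors. It had 22.4 to 38.9 CPM over the 7 libraries, while the other 8 factors stayed at or below 2.89 CPM in any library. Per kb of transcript, the scale on which genes can be compared, Otx2 averaged 12.5 CPM per kb in vehicle libraries (range 11.3 to 14.9, n = 3), 44.6 times the level of Zic5, the next factor. The lowest Otx2 library (10.7 CPM per kb) was 16.0 times the highest value of any other factor in any library (0.670 CPM per kb, Sox12 in tamoxifen clone8_1). Otx2 lay above 77.5% of 21896 coding genes by its vehicle level per kb, whereas the other 8 lay above 28.7% (Sox3) to 46.4% (Zic5).

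**Figure D1:**
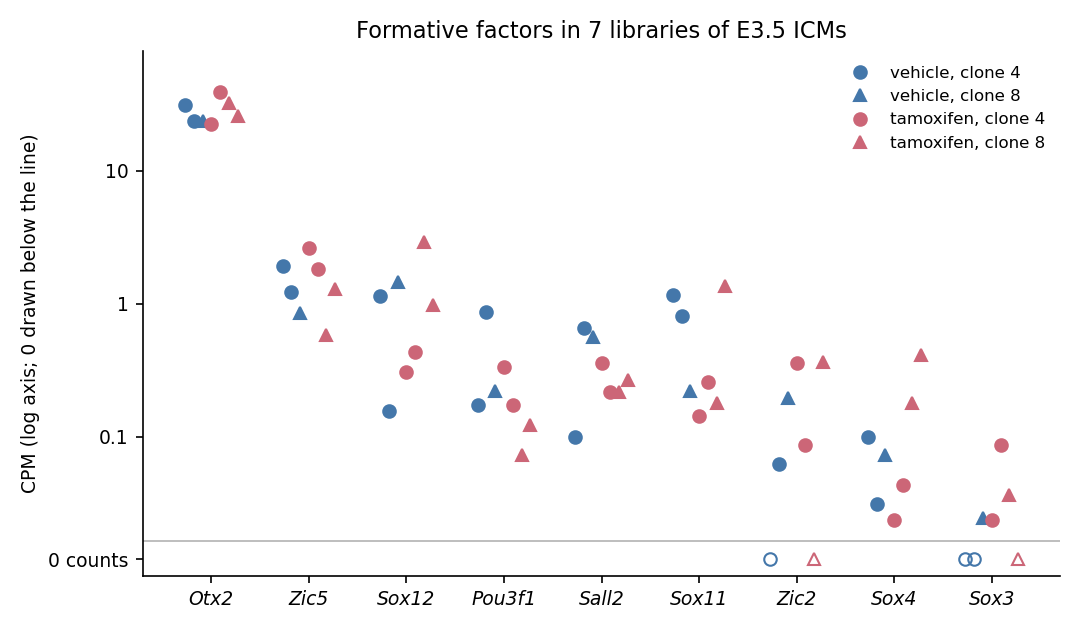
CPM of each formative factor (log axis) in each of the 7 libraries, with open symbols below the line for libraries with 0 counts; colour gives the treatment and shape the clone. Otx2 sits at 22.4 to 38.9 CPM in all libraries, and the other 8 factors at or below 2.89 CPM.

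In the order of vehicle levels per kb, Otx2 was followed by Zic5 (0.280, range 0.179 to 0.406 CPM per kb), Sox12 (0.213, range 0.0361 to 0.339), Pou3f1 (0.110, range 0.0451 to 0.227), Sall2 (0.0883, range 0.0200 to 0.132), Sox11 (0.0880, range 0.0264 to 0.140), Zic2 (0.0351, range 0 to 0.0799), Sox4 (0.0142, range 0.00650 to 0.0207) and Sox3 (0.00393, range 0 to 0.0118). The ranges of neighbours in this order overlapped everywhere except between Otx2 and Zic5. Factors further apart in the order could still be separate: the lowest vehicle library of Zic5 was above the highest of Sall2, Sox11, Zic2, Sox4 and Sox3. Sall2 and Sox11 changed places when the longest transcript or the union of exons was used as length. In a pool of ICMs, fewer cells with a transcript and less transcript per cell cannot be told apart.

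The starts of transcription of the factor with the highest level and of a CpG-rich factor at a low level are shown to set the level of each gene beside the sequence at its start. RefSeq (GRCm38.p6) gave 10 windows, of 250 bases before and 50 after a start, for 6 of the 9 factors (Otx2, Sall2, Sox4, Sox11, Sox12 and Zic5). The bases before the start are printed 5′ to 3′ on the gene's strand, with CpG dinucleotides in capitals, for the Otx2 start that lies within 20 bases of 2 GENCODE transcript starts (minus strand, chr14:48667509-48667758) and for Sox12 (minus strand, chr2:152398047-152398296).
Otx2: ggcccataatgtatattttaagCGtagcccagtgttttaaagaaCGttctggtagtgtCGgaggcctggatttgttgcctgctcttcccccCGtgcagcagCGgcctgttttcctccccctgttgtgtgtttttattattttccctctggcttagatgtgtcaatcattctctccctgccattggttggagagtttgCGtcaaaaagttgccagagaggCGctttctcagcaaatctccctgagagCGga
Sox12: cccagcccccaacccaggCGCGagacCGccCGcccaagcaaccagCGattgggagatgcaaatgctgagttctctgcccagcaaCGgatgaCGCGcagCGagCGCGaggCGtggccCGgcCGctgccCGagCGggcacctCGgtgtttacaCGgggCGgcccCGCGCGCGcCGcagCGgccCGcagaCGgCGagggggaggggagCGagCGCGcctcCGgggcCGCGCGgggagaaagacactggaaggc
The printed Otx2 bases hold 8 CpG and those of Sox12 hold 35. In the full windows, Sox12 had 47 CpG, more than 98.6% of 32851 RefSeq windows, and this Otx2 window had 8, more than 51.4% of them. The 10 windows ranged from 1 CpG (a Sall2 start) to 47, with 6 to 16 at the Otx2 starts. Sox12 was at 0.213 CPM per kb in vehicle libraries against 12.5 for Otx2, but this pair was chosen for its contrast. Whether level goes with CpG number was not tested. Counts are per gene and do not show which of the 4 RefSeq starts of Otx2 was used.

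The windows were searched on both strands for an ETS motif (CCGGAAGT, in 3.89% of all windows), an AP-1 motif (TGANTCA, 7.81%), the octamer motif of POU factors (ATGCAAAT, 1.74%), a bicoid-type homeobox motif (TAATCC, 7.06%), a SOX motif (AACAAAG, 5.85%) and a ZIC motif (CAGCAGG, 10.5%). No letters of one motif overlap another among the matches. Matches were found in 2 windows. Sox12 had the octamer on the plus strand of the window, with its first base at position -195 from the start. The Otx2 start at 48665109 had the bicoid motif on the other strand at -211. These are matches of letters and not sites of binding.

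Otx2 (ENSMUSG00000021848, chromosome 14, 48657677 to 48673819, minus strand, GRCm38) encodes a homeobox factor that also acts later in the anterior visceral endoderm and the forebrain. Vehicle clone4_1 had 1249 raw counts, clone4_2 had 758 and clone8_1 had 968; among tamoxifen pools, clone4_1 had 945, clone4_2 had 902, clone8_1 had 893 and clone8_2 had 1063. This order of libraries is kept for the other genes. As CPM these are 31.0, 23.6 and 23.6 in vehicle and 22.4, 38.9, 32.3 and 25.8 in tamoxifen libraries. The groups overlapped: the lowest of all libraries was tamoxifen clone4_1 and the highest was tamoxifen clone4_2. The vehicle mean was 26.1 ± 4.27 CPM (SD, n = 3). The tamoxifen mean was 29.8 ± 7.29 CPM (SD, n = 4). The fitted log2 fold change, tamoxifen over vehicle, was 0.19 ± 0.24 (SE), and its Benjamini-Hochberg adjusted p over all genes was 0.867 (quasi-likelihood test, edgeR). Its 95% interval ran from -0.33 to 0.72, a ratio of 0.794 to 1.65, so a rise of 2-fold lies outside the interval and a rise of 1.5-fold lies within it. Without tamoxifen clone4_2 the log2 fold change was 0.030, and without vehicle clone4_1 it was 0.32. The means had the same direction in both clones, 27.3 and 30.6 CPM in clone 4 and 23.6 and 29.0 CPM in clone 8, whose vehicle value is 1 library. The libraries of clone 4 did not separate: its tamoxifen pools (22.4 and 38.9 CPM) enclosed its vehicle pools (31.0 and 23.6 CPM).

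The library with the highest Otx2, tamoxifen clone4_2, also had the highest summed epiblast markers (2213 CPM) and, at 5953 CPM, the second lowest trophectoderm markers. Tamoxifen clone4_1, with the lowest Otx2, had 1826 CPM of epiblast and 6989 CPM of trophectoderm markers. Other libraries ran differently. Tamoxifen clone8_1, second in Otx2 at 32.3 CPM, had 1683 CPM of epiblast and 8485 CPM of trophectoderm markers. Vehicle clone4_1, next at 31.0 CPM, had the lowest epiblast sum (1426 CPM) and the highest trophectoderm sum (9855 CPM). The part of cell composition in the level of Otx2 was not tested. On the other strand, Otx2os1 overlaps 154 bases of Otx2 exons and had 0.0722 to 0.992 CPM, far below Otx2 itself. On the same strand, Gm49154 overlaps 168 bases of Otx2 exons, and no level is given for it here. Whether the authors counted reads by strand is not given in the sources used here.

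Pou3f1 (ENSMUSG00000090125, chromosome 4, 124656807 to 124660655, plus strand, 1 exon) encodes a POU factor of the formative and post-implantation epiblast. Its counts were 7, 28 and 9 in vehicle and 14, 4, 2 and 5 in tamoxifen libraries. Vehicle clone4_2 stood highest at 0.872 CPM, and the other 6 libraries lay between 0.0722 and 0.332 CPM. It did not pass edgeR's expression filter, which asks for enough counts in at least as many libraries as the smaller group has, and in the fit without a filter its unadjusted p was 0.300 (edgeR, n = 7 libraries in a fit across all genes). Pou3f2 was at 0 in all libraries, which allows at most 0.0710 to 0.129 CPM by the limit of 3 counts, and Pou3f3 had at most 22 counts. The antisense gene that overlaps Pou3f1 had 0 counts in every library, and the part of this overlap in the counts of Pou3f1 was not tested.

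Sall2 (ENSMUSG00000049532, chromosome 14, 52311172 to 52328762, minus strand) belongs to a family of zinc finger factors in which Sall4 is known for its part in pluripotency. Sall2 had 4, 21 and 23 counts in vehicle and 15, 5, 6 and 11 counts in tamoxifen libraries. The vehicle libraries spanned 0.0993 to 0.654 CPM and enclosed all 4 tamoxifen libraries, at 0.216 to 0.355 CPM. The log2 fold change was -0.71 ± 0.86 (SE; edgeR, adjusted p = 0.865). In its family, Sall4 averaged 77.6 and Sall1 3.39 CPM per kb in vehicle libraries, against 0.0883 for Sall2 and 0.00733 for Sall3.

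Zic2 and Zic5 encode zinc finger factors of the epiblast and the neural plate and lie head to head on chromosome 14, 9757 bp apart (Zic5 ENSMUSG00000041703, 122456795 to 122465677, minus strand; Zic2 ENSMUSG00000061524, 122475435 to 122479852, plus strand). Zic5 was counted in each library, with 78, 39 and 35 counts in vehicle and 110, 42, 16 and 53 in tamoxifen libraries. It was highest in tamoxifen clone4_1 (2.61 CPM) and lowest in tamoxifen clone8_1 (0.578 CPM), so the tamoxifen libraries enclosed the vehicle libraries (0.853 to 1.94 CPM). The log2 fold change of Zic5 was 0.24 ± 0.62 (SE; edgeR, adjusted p = 0.943), and it was -0.14 without tamoxifen clone4_1 and -0.013 without vehicle clone8_1. Zic2 had 0, 2 and 8 counts in vehicle and 15, 2, 0 and 15 in tamoxifen libraries. The libraries at 0 were vehicle clone4_1, where a count of 0 allows up to 0.0744 CPM, and tamoxifen clone8_1, where it allows up to 0.108 CPM. Vehicle clone4_1 had the second highest Zic5, so the members of this neighbouring pair did not rank the libraries alike. Their paralogs Zic1 and Zic4 had at most 1 and 2 counts.

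Sox3 (ENSMUSG00000045179, chromosome X, 60891366 to 60893430, minus strand, 1 exon) is a SOXB1 factor that is known to overlap in function with Sox2 after implantation. It was barely detected: 0, 0 and 1 count in vehicle and 1, 2, 1 and 0 in tamoxifen libraries. The 3 libraries at 0 allow at most 0.0744, 0.0934 and 0.0728 CPM, and no fold change is given. The spread of Sox3 over the 7 libraries (coefficient of variation 127%) was about the size that counting alone gives at this level (120%). Sox2, the SOXB1 factor of the ICM, had 428 to 736 counts in every library and 7.07 CPM per kb in vehicle libraries, and Sox1 was at 0.

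The SOXC factors Sox4, Sox11 and Sox12 share a group within the SOX family and are best known from neural and mesenchymal progenitors. Sox4 and Sox11 were highest in tamoxifen clone8_2, and Sox12 in tamoxifen clone8_1. Sox4 (ENSMUSG00000076431, chromosome 13, 28948919 to 28953713, minus strand) had 4, 1 and 3 counts in vehicle and 1, 1, 5 and 17 in tamoxifen libraries, so a single library, tamoxifen clone8_2, held 17 of its counts. Sox4 did not pass the filter. The lincRNA Gm26735, which overlaps 2616 of the 4795 bases of its exon on the other strand, had 0 counts. The sources used here do not say whether reads were counted by strand, and the part of this overlap in the counts of Sox4 was not tested.

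Sox11 (ENSMUSG00000063632, chromosome 12, 27334264 to 27342574, minus strand) had 47, 26 and 9 counts in vehicle and 6, 6, 5 and 56 in tamoxifen libraries. As CPM, vehicle libraries had 1.17, 0.810 and 0.219, and tamoxifen libraries had 0.142, 0.259, 0.181 and 1.36. The highest value was thus in tamoxifen clone8_2 and the other 3 tamoxifen libraries were near the lowest vehicle library. The log2 fold change was -0.57 ± 0.99 (SE; edgeR, adjusted p = 0.904). It was -0.070 without vehicle clone4_1, and without tamoxifen clone8_2 the gene no longer passed the filter. Within clone 4 it was -2.32 ± 0.98 (SE), both vehicle libraries being above both tamoxifen libraries (unadjusted p = 0.0493 in the edgeR fit across all genes, 2 libraries per group, adjusted p = 0.633). In clone 8 the means ran the other way, 0.219 CPM in the vehicle library and 0.770 CPM over the tamoxifen libraries.

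Sox12 (ENSMUSG00000051817, chromosome 2, 152393611 to 152398063, minus strand) had 46, 5 and 60 counts in vehicle and 13, 10, 80 and 40 in tamoxifen libraries. It was highest in tamoxifen clone8_1 (2.89 CPM) and lowest in vehicle clone4_2 (0.156 CPM). All 3 clone 8 libraries had at least 0.971 CPM, while 3 of the 4 clone 4 libraries had at most 0.431 CPM and vehicle clone4_1 had 1.14 CPM. The log2 fold change was 0.31 ± 0.94 (SE; edgeR, adjusted p = 0.951), and it turned to -0.34 with clone in the model, to -0.19 without vehicle clone4_2 and to -0.68 without tamoxifen clone8_1.

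**Figure D2:**
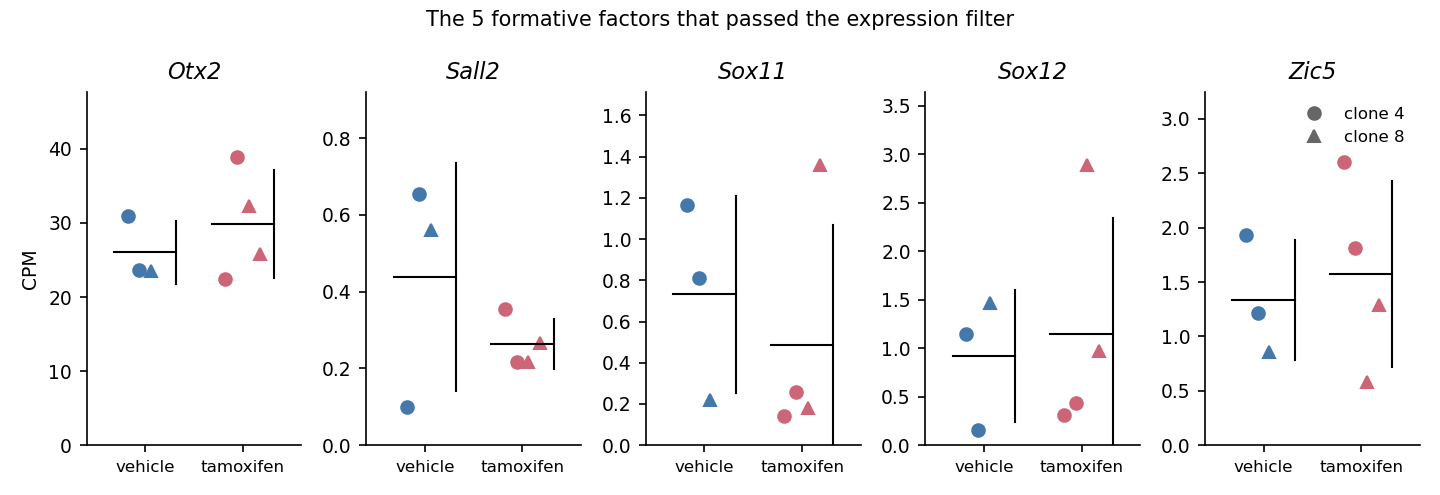
CPM of the 5 factors that passed the expression filter, by treatment and clone; points are libraries, horizontal lines group means and vertical lines the mean ± SD, cut at 0. The groups overlap for each gene, and Sox11 has 1 tamoxifen library at 1.36 CPM with the other 3 at or below 0.259 CPM.

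Together, 5 of the 9 factors passed the expression filter (Otx2, Sall2, Sox11, Sox12 and Zic5) and 4 did not (Pou3f1, Sox3, Sox4 and Zic2). Of the 5, 0 were called at an adjusted p under 0.05, as were 0% of the 16248 genes tested in edgeR's quasi-likelihood test (DESeq2 called 4 of these genes and limma-voom 0). None of the 5 reached an unadjusted p under 0.05, against 5.97% of tested genes. DESeq2 and limma-voom also called 0 of the 5. The CPM of the groups overlapped for all 9 factors, while they did not overlap in 8.45% of tested genes. With 3 fold changes above 0 and 2 below, the median over the 5 was 0.19 (log2), against 0.019 over all tested genes. Of all tested genes, 51.75% had a fold change above 0. For the 4 factors that failed the filter, the fit without a filter gave unadjusted p-values of 0.300 (Pou3f1), 0.403 (Sox3), 0.427 (Sox4) and 0.452 (Zic2) in edgeR.

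The precision differed widely between the factors. The 95% interval of the log2 fold change spanned -0.33 to 0.72 for Otx2, -1.13 to 1.61 for Zic5, -1.79 to 2.41 for Sox12, -2.63 to 1.2 for Sall2 and -2.77 to 1.62 for Sox11. In these libraries a change of 2-fold in either direction was within the interval for all of these except Otx2. The spread over libraries exceeded counting error in most factors: the coefficient of variation over the 7 libraries was 21.5% for Otx2 where counting alone gives 3.27%, 47.3% against 13.9% for Zic5, 89.4% against 16.9% for Sox12 and 87.1% against 21.6% for Sox11. For Sall2 it was 59.3% against 29.2%. Counts of amplified libraries without molecular identifiers are not independent molecules, so counting error is a lower bound.

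Whether the change differed between clones was tested as an interaction of clone and condition. None of the 5 factors was called, where 3.16% of tested genes were in edgeR's quasi-likelihood test. Clone 8 has 1 vehicle library, the one with few short transcripts, so in this test clone 8 and that library cannot be told apart. Sox11 had the largest difference, 4.12 (log2, clone 8 minus clone 4; adjusted p = 0.380), and Otx2 the smallest, 0.14 (adjusted p = 0.935).

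**Figure D3:**
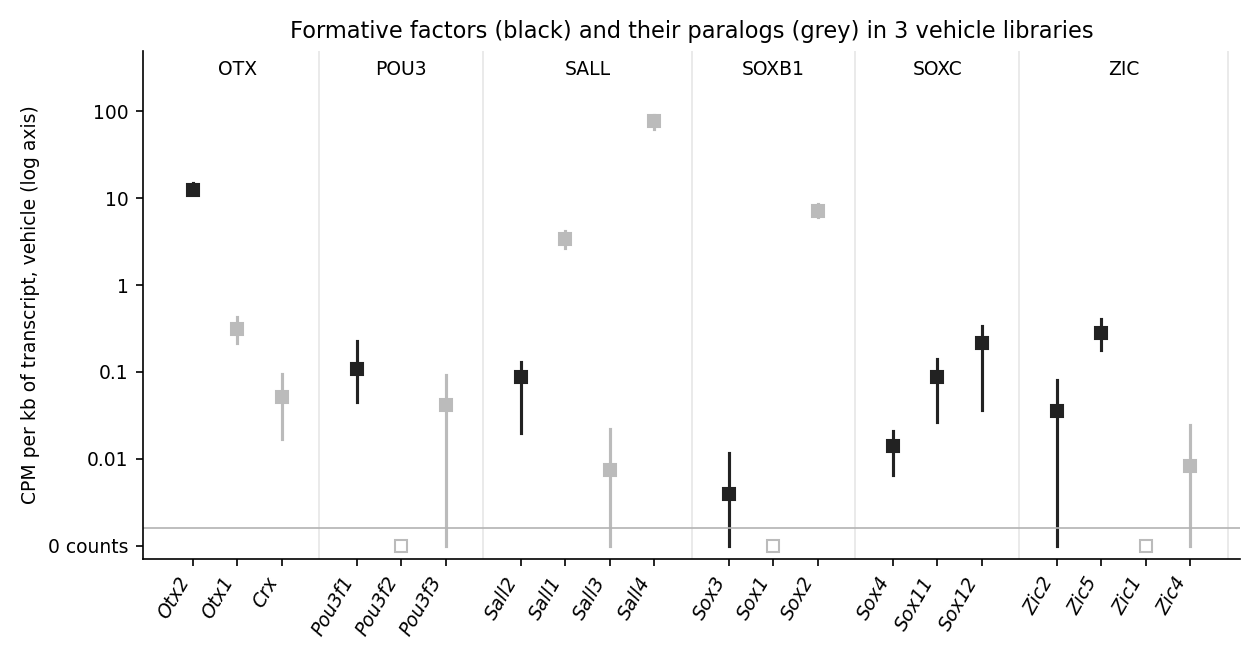
Mean level in the 3 vehicle libraries as CPM per kb of transcript (log axis) for the formative factors (black) and their paralogs (grey) by family; lines give the range over libraries and open squares genes at 0 counts. Otx2 is the highest member of its family, and Sall2 and Sox3 lie below Sall4, Sall1 and Sox2.

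Among its paralogs Otx2, at 12.5 CPM per kb in vehicle libraries, stood against 0.315 for Otx1 and 0.0517 for Crx, and the lowest Otx2 library (11.3) was above the highest Otx1 library (0.424). Otx1 had 24, 38 and 35 counts in vehicle and 0, 11, 0 and 33 in tamoxifen libraries, with a log2 fold change of -1.45 (edgeR, adjusted p = 0.836). Pou3f1 (0.110) and Pou3f3 (0.0418) had overlapping ranges. In the SALL and SOXB1 families the factors known from the ICM and embryonic stem cells, Sall4 and Sox2, were above Sall2 and Sox3 in each library. Of the 11 paralogs examined 5 were tested. Of these, edgeR called 0, against 0% of all tested genes, and 0 had an unadjusted p under 0.05, against 5.97%.

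Beside the factors, 14 other genes of the formative and post-implantation epiblast were examined, and 13 of them were tested. Their levels ranged more widely than those of the factors: Utf1, a chromatin-associated factor of pluripotent cells, had 192 CPM per kb in vehicle libraries and Dnmt3b, which lays down new DNA methylation, had 48.9, while Lef1, an effector of Wnt signalling that did not pass the filter, had 0.0397. Fgf5, a ligand often used as the marker of the formative state, had 8 to 22 counts. Of the 13, 7 had a fold change above 0 and 6 below, where 51.75% of all tested genes were above 0. Their median was 0.070 (log2), and 0 were called by edgeR, DESeq2 or limma-voom. Utf1 and Dnmt3b were the 2 with an unadjusted p under 0.05 (5.97% of all tested genes had one) and the 2 whose groups did not overlap (8.45% of tested genes).

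Utf1 had 216, 241 and 249 CPM in vehicle and 371, 408, 326 and 283 CPM in tamoxifen libraries, so each tamoxifen library was above each vehicle library. The log2 fold change of Utf1 was 0.56 ± 0.17 (SE; edgeR, adjusted p = 0.794). Dnmt3b ran the other way, with 184, 244 and 179 CPM in vehicle and 178, 109, 136 and 136 CPM in tamoxifen libraries. The log2 fold change of Dnmt3b was -0.54 ± 0.20 (SE), with the same adjusted p of 0.794. For the lists that follow, the share of all tested genes with a fold change above 0 was 51.75%. Of the marker lists, 6 of 8 epiblast markers had a fold change above 0 (0 with an unadjusted p under 0.05). All 8 trophectoderm markers had one below 0. Of these, 2 had an unadjusted p under 0.05: Gata3 (-0.47, unadjusted p = 0.0080, edgeR) and Krt7 (-1.235, unadjusted p = 0.029, edgeR). Gata3 and Tfap2c were lower in each tamoxifen library than in each vehicle library. None of the markers in these 2 lists was called. Of the 7 tested primitive endoderm markers, 5 had a fold change above 0 and 2, Pdgfra (-0.50) and Dab2 (-0.21), had one below 0. Sox17 (2.58, unadjusted p = 0.0062, edgeR) and Lama1 (1.35, unadjusted p = 0.0039, edgeR) were higher in each tamoxifen library than in each vehicle library, with neither called. Of the 4 tested gastrulation and neural markers, 3 had a fold change above 0, and 1 of them, Tubb3, had an unadjusted p under 0.05 (2.35, unadjusted p = 0.022, edgeR), with overlapping groups. The part of cell composition in the values of Utf1 and Dnmt3b was not tested. Foxd3 and Etv4, named here after their values were seen, had the largest fitted changes of the list. Foxd3, a forkhead factor of the exit from naive pluripotency, had 18, 42 and 2 counts in vehicle and 91, 48, 91 and 33 in tamoxifen libraries (log2 fold change 1.79 ± 0.91, SE). Etv4, an ETS factor induced by ERK, had 4, 12 and 8 counts in vehicle and 56, 2, 49 and 34 in tamoxifen libraries (log2 fold change 2.17 ± 1.01, SE). The groups of both genes overlapped, and edgeR gave both an adjusted p of 0.794. Among 9 naive epiblast genes, 7 had a fold change above 0 (1 with an unadjusted p under 0.05) and 2 below, with a median of 0.37 and 0 called.

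**Figure D4:**
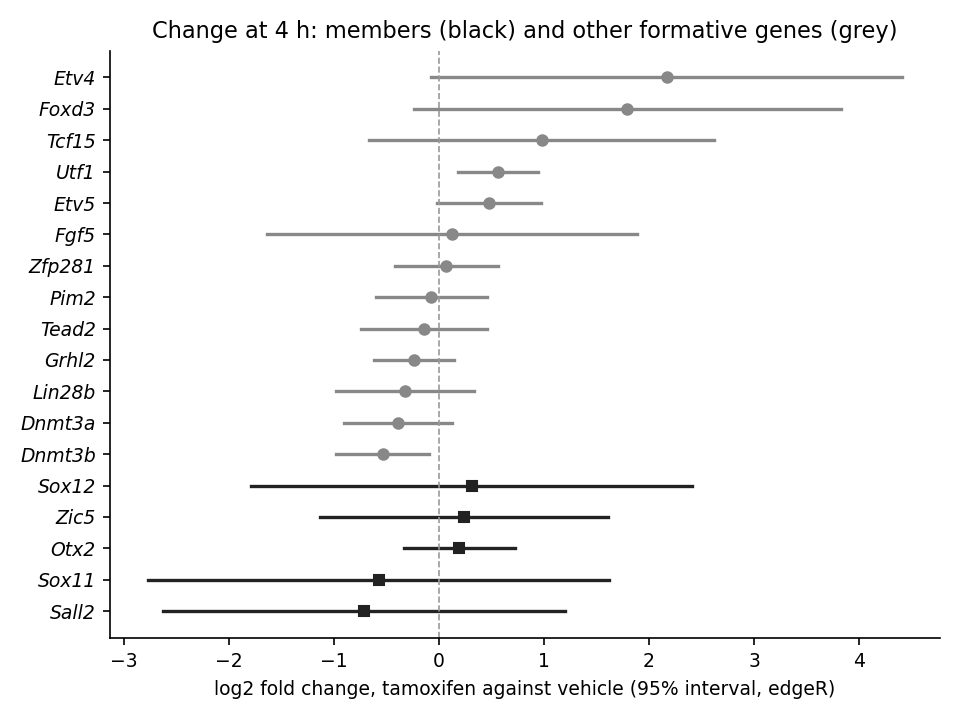
Log2 fold change with its 95% interval from edgeR, tamoxifen against vehicle, for the 5 tested formative factors (black) and 13 other formative genes (grey). The intervals of Utf1 and Dnmt3b lie on opposite sides of 0 and those of all 5 factors include 0; the intervals are not adjusted for the number of genes.

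The genes whose pattern over the 7 libraries was most like that of a factor were ranked by the root mean square difference of log2 CPM after each gene's mean was removed, among the tested genes with at least 5 CPM. For Otx2, whose own spread by that measure was 0.27, the nearest of 9453 genes were Rmi1 (0.090), Apaf1 (0.12) and Ankrd16 (0.14), where the median gene was at 0.42. For Zic5 they were Ttc17 (0.21), Lnpep (0.24) and Zfp995 (0.28), and for Sall2 they were Pde4dip (0.24), Vnn1 (0.29) and Runx1t1 (0.30). The own spread was 0.66 for Zic5 and 0.70 for Sall2. For Sox11 the nearest gene was Tpgs2 (0.58, own spread 1.11) and for Sox12 it was Grk5 (0.58, own spread 1.21), and because the measure grows with a gene's own spread these distances are not comparable between factors. The nearest genes come from a ranking of all these genes over 7 points.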

How the data were processed

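The authors deposited raw counts per Ensembl gene for 7 RNA-seq libraries, each made from 2 ng of RNA with a low-input kit, per the labels' protocols; per the series' design text, a further vehicle sample failed quality control. The submitters' processing notes name bcl2fastq 2.19.1, STAR 2.5.3a and the build mm10; the counting program, annotation and strand setting are not given in the sources used here. Of 52636 gene IDs, 52489 matched GENCODE M21 (GRCm38, the assembly of mm10), which gave symbols, coordinates and lengths; the typical length is the median over a gene's basic coding transcripts.

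All genes were fitted at once in edgeR 4.0.16 (R 4.3.3), with TMM factors, its expression filter by group, a quasi-likelihood model of condition alone, and Benjamini-Hochberg adjustment over 16248 genes. An adjusted p under 0.05 was called. CPM use TMM factors, and log2 CPM a prior count of 2. The SE is the coefficient divided by the square root of F. A count of 0 was given the limit of 3 counts, and intervals are at 95%. DESeq2 1.42.0 and limma 3.58.1 were alternatives. The fit was tested on simulated data.

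The named genes are the 9 factors, 14 other formative genes (with values for those with an unadjusted p under 0.05 or non-overlapping groups, and, named after their values were seen, for Foxd3, Etv4, Fgf5 and Lef1, and for those that changed direction under an alternative), 11 paralogs (a further paralog is not reported here), 9 naive genes as counts, and the 3 genes most alike in pattern to each tested factor. The members and lists, and the test of clone by condition, were chosen with earlier results of these data known. Lists of gastrulation and neural markers and of blood and maternal markers had 4 of 8 and 2 of 6 genes tested, with 0 called. The latter summed to 84.3 to 236 CPM, nearly all Pecam1 (83.2 to 235 CPM), so this sum is not read as a measure of blood or maternal cells. Among its other genes, Hbb-bs and Ptprc were at 0 in all libraries. Hba-a1 had at most 3 counts, Pax8 at most 4 and Ovgp1 6 to 45.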

Additional observations from a re-analysis of the deposited data

Results flagged for a closer look

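Among the 9 factors and 14 other formative genes, 2 had a tamoxifen library that lay far from the other 3 by Dixon's criterion for the gap relative to the range, which chance gives in about 1 of 20 groups. Sox11 had 1.36 CPM in tamoxifen clone8_2, with the other tamoxifen libraries at 0.142 to 0.259 CPM. Lef1 had 0.253 CPM in tamoxifen clone8_1, against 0.121 to 0.142 CPM in the others, at 3 to 7 counts per library.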

How the results depend on the processing

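The test of tamoxifen against vehicle called 0 genes as reported, 4 with DESeq2 and 2 without both libraries labelled clone8_1. In all 17 alternatives it called 0 of the factors tested (2 to 9, by alternative) and 0 of the other formative genes tested (10 to 14). Of 80 alternative fold changes of the 5 tested factors, 73 kept their direction. Otx2, Sall2 and Sox11 kept it in all their fits, none of which was of clone 8 alone. In clone 8, with 1 vehicle library, the means of Otx2 and Sall2 kept that direction. Those of Sox11 ran the other way (0.219 CPM in vehicle, 0.770 CPM in tamoxifen). Sox12 was -0.34 with clone as a covariate, -0.19 without both clone8_1 libraries, -0.83 in clone 4 alone and -0.68 to 0.80 over the fits that left out 1 library; those fits gave -0.14 to 0.59 for Zic5. Of 218 fold changes of the other formative genes, 209 kept their direction. Leaving out 1 library gave -0.23 to 0.45 for Fgf5, -0.38 to 0.089 for Tead2, -0.084 to 0.20 for Zfp281 and -0.18 to 0.013 for Pim2, which was 0.040 in clone 4 alone. The cause of these changes was not tested.

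With the replicate number as a block, Zfp281 was -0.099, Pim2 0.0060, and 0 genes were called. Pools with the same number in both groups did not deviate together: the correlations of their deviations across 16248 genes were 0.0078, 0.021 and -0.068. These values cannot decide whether the numbers pair the samples, because the deviations rest on few pools per group. In the order of vehicle levels 2 factors changed rank with union exon lengths, 2 with longest transcripts, and 0 to 4 when 1 vehicle library was left out. The filter of a mean count of 50 left out Sall2, Sox11 and Sox12; Sall2 also failed the filter without tamoxifen clone4_1, and Sox11 without tamoxifen clone8_2. The 8 factors other than Otx2 had at most 110 counts in a library; the part of depth in their precision was not tested.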
